A study of Mus musculus with 3 samples.

Results

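Il33 encodes interleukin-33, an alarmin of the IL-1 family that epithelial cells hold in the nucleus and release when they are damaged. Released IL-33 binds ST2, the product of Il1rl1, which pairs with the shared co-receptor Il1rap and signals through MyD88 and NF-kB. Group 2 innate lymphoid cells, regulatory T cells and mast cells carry ST2, and in the mouse lung AT2 cells, the surfactant-making cells of the alveolus, are a well known source of the cytokine. Il33 is 1 of 32287 features in the deposited matrices. It was chosen by its own levels in earlier results from the same data, so its differences between libraries and cell classes are given below as description, with no test.

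The study profiled sorted lung cells from mice with the genotype Scgb1a1-CreER;Sftpc-DreER;R26-TLR, taken 4 weeks after lung injury by bleomycin, which injures the alveolar lining. Cells with red fluorescence alone formed the Club-Tracer library, which carries the label driven by Scgb1a1, the secretoglobin of airway club cells. Cells with red and green fluorescence formed the BASC-Tracer library, named for bronchioalveolar stem cells, which use both drivers. Cells with green fluorescence alone formed the AT2-Tracer library, which carries the label driven by Sftpc, the surfactant protein of AT2 cells. All 3 groups share the genotype, the bleomycin injury and the time point, and none is an uninjured control. There was 1 library per lineage, the sources used here do not give the number of mice behind each, and no difference between libraries has a replicate check. A driver labels whichever cells used it when the recombinase was active, so a lineage label is not a cell type, and cell classes were set here from marker genes.

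After barcodes with fewer than 500 genes or more than 15% mitochondrial UMIs were left out, 3196 Club-Tracer, 1402 BASC-Tracer and 5859 AT2-Tracer barcodes remained. Their median depth was 15406, 15222 and 9682 UMIs (unique molecular identifiers, each counting 1 captured molecule). Libraries shared few barcodes, 6 between Club-Tracer and BASC-Tracer, 23 between Club-Tracer and AT2-Tracer and 14 between BASC-Tracer and AT2-Tracer. A macrophage or monocyte gate was met by 15 Club-Tracer, 105 BASC-Tracer and 1861 AT2-Tracer barcodes, although all samples are labelled as lung epithelial cells, and the AT2-Tracer library stood apart in this.

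The gene lies on mouse chromosome 19, plus strand, at chr19:29925114-29960718 in GRCm38, and GENCODE gives it 5 transcripts and no overlapping gene on either strand. Its transcripts begin at separate first exons, and the RefSeq table (GRCm38.p6) lists 2 start sites about 20.7 kb apart. The libraries read the 5′ end of transcripts, but the matrices sum all transcripts of a gene, so which start was used could not be read from them. The 250 bases before each start are shown because they are the sequence from which each form of the counted transcript begins. Capitals mark matches to the motifs searched. The first lies at chr19:29924863-29925112 and the second at chr19:29945540-29945789.
Il33 upstream start: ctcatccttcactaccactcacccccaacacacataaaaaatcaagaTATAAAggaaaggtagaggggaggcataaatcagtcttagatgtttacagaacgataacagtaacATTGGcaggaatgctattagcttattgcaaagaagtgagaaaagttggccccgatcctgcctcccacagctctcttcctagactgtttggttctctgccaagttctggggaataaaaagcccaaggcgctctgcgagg
Il33 downstream start: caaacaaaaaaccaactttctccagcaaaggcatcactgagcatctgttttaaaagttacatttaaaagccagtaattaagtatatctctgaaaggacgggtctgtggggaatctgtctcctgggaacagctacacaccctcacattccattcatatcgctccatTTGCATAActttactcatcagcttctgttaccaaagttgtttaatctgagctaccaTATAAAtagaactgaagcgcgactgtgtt
Both windows hold TATAAA, the letters of a TATA box, on the plus strand, 203 bases before the upstream start and 29 bases before the downstream start. Of 32851 RefSeq promoter windows read the same way on both strands, 12.4% hold TATAAA. The upstream window also holds ATTGG, the reverse complement of CCAAT, which 33.8% of windows hold. The downstream window holds TTGCATAA, a match to TTGCNNAA (letters of a C/EBP site), which 9.56% of windows hold. No match to GGGCGG (GC box, in 32.7% of windows), TTCNNNGAA (STAT, 7.02%) or AGATAA (site of GATA factors, 9.99%) was found in either window. The marked matches do not overlap each other.

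AT2 cells were gated on Sftpc at 4% or more of a cell's UMIs and at least 5000 UMIs, which gave 349 cells in the Club-Tracer, 258 in the BASC-Tracer and 1395 in the AT2-Tracer library. Their median depth was 26023, 31809 and 18503 UMIs. AT2 markers that the gate did not use were present in every library, and club genes were present too, mostly in Club-Tracer and BASC-Tracer cells. Lamp3, a lamellar body protein, was detected in 98.3% of the gated Club-Tracer cells, 99.2% in BASC-Tracer and 98.4% in AT2-Tracer, and Abca3, the lipid transporter of lamellar bodies, in 98.3%, 99.6% and 98.6%. Ptprc, the pan-leukocyte gene, was seen in 0.287%, 0.775% and 3.51% of them, and Col1a1 of fibroblasts in none, none and 1.51%. Scgb1a1 differed far more, at 42257 CPM (Il33 or other UMIs over all summed UMIs, scaled as counts per 1000000) in Club-Tracer, 9417 CPM in BASC-Tracer and 58.0 CPM in AT2-Tracer cells of the gate. The club gene Cyp2f2 was detected in 96.3% of the gated Club-Tracer cells, 70.5% in BASC-Tracer and 8.46% in AT2-Tracer. Scgb3a2, another club gene, was detected in 58.2%, 19.8% and 1.29%. How much of these transcripts was made in the cells and how much was free RNA of the library was not tested.

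Il33 was lowest in the AT2 cells of the club lineage. Summed over the gate it had 260 UMIs in Club-Tracer cells, a level of 28.7 CPM with an exact Poisson 95% interval of 25.3 to 32.4. BASC-Tracer cells had 993 UMIs and 118 CPM (111 to 126), and AT2-Tracer cells had 5839 UMIs and 213 CPM (207 to 218). The 3 intervals do not overlap, and the order is Club-Tracer, BASC-Tracer, AT2-Tracer from low to high. The Club-Tracer level was 0.135 times the AT2-Tracer level (exact conditional interval 0.119 to 0.153), which is 7.41-fold lower. The BASC-Tracer level was 0.555 times the AT2-Tracer level (0.519 to 0.594), and the Club-Tracer level was 0.243 times the BASC-Tracer level (0.211 to 0.279). Intervals throughout cover counting error only and leave out variation between cells and between mice.

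The distance between libraries was large for Il33 against other genes of the same cells. On the scale log2((CPM + 5)/(CPM + 5)), 3.52% of 2897 genes reaching 50 CPM in either of the libraries were at least 2-fold lower in Club-Tracer than in AT2-Tracer cells and 2.17% at least 2-fold higher. Il33 stood at -2.69 on that scale, with 10 features lower, the reporter ZsGFP among them, where the median of all genes was -0.15. For BASC-Tracer over AT2-Tracer cells 0.778% of 2957 genes were at least 2-fold lower and 1.05% at least 2-fold higher. Il33 stood at -0.82 there, short of the 2-fold mark, with 41 genes lower and a median of all genes of -0.03.

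The libraries differed in how many AT2 cells held the transcript. Il33 was detected in 22.1% of the gated Club-Tracer cells, 54.7% in BASC-Tracer and 67.4% in AT2-Tracer (exact binomial intervals 17.8 to 26.8%, 48.4 to 60.8% and 64.9 to 69.8%), although the AT2-Tracer cells were the shallowest. With each cell thinned to 5000 UMIs the shares were 10.0%, 26.4% and 46.6% (intervals 7.09 to 13.7%, 21.1 to 32.2% and 44.0 to 49.3%). Among thinned cells with Il33, the mean was 1.43 UMIs in Club-Tracer, 2.24 in BASC-Tracer and 2.30 in AT2-Tracer cells. The median among them was 1 UMI in Club-Tracer, 1 in BASC-Tracer and 2 in AT2-Tracer cells. Positive BASC-Tracer and AT2-Tracer cells were thus close in mean but not in median, and the share of positive cells differed between them.

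**Figure D1:**
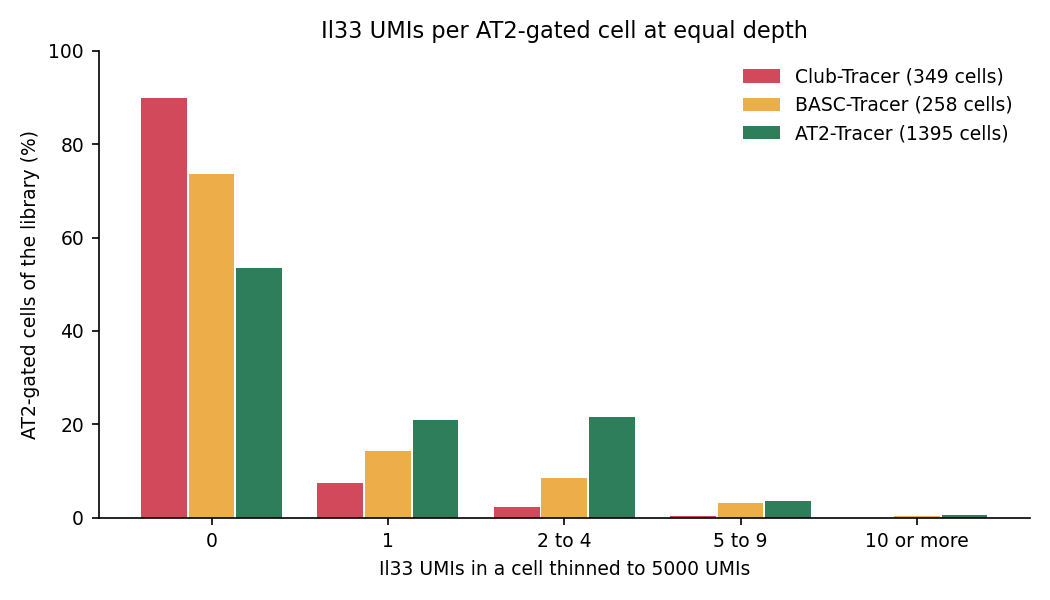
Share of AT2-gated cells (%, vertical axis) by the number of Il33 UMIs in a cell thinned to 5000 UMIs (horizontal axis), for Club-Tracer (349 cells), BASC-Tracer (258) and AT2-Tracer (1395) bars. Cells with 0 Il33 UMIs make up 90.0%, 73.6% and 53.4% of the libraries, and cells with 2 to 4 make up 2.29%, 8.53% and 21.5%.

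Il33 was unevenly spread over the AT2 cells of each library. The highest cell held 22 UMIs in the Club-Tracer, 60 in the BASC-Tracer and 70 in the AT2-Tracer library, while the medians were 0, 1 and 2. The tenth of cells with most Il33 held 80.4% of its UMIs in the Club-Tracer, 64.4% in the BASC-Tracer and 45.2% in the AT2-Tracer library. In cells thinned to 5000 UMIs the ratio of variance to mean was 1.86, 3.40 and 2.71, where counting alone gives a value near 1. Cells with and without Il33 after thinning had similar quality. In AT2-Tracer cells the median depth was 19523 UMIs with Il33 and 18041 without, and the median mitochondrial share was 2.17% and 2.03%. In BASC-Tracer cells the depths were 34425 and 31688 UMIs, and in Club-Tracer cells 26316 and 25932 UMIs.

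Across cell classes, Il33 followed the AT2 class in every library. The AT2 gate held 78.8% of all Il33 UMIs of the Club-Tracer library, 78.4% of the BASC-Tracer library and 88.3% of the AT2-Tracer library. It took in 10.9%, 18.4% and 23.8% of the barcodes, which were deeper than most. Of the UMIs of all genes it held 9064172 of 60155449 in Club-Tracer, 8413667 of 27872078 in BASC-Tracer and 27468688 of 69159996 in AT2-Tracer. Cells with Sftpc at 0.5% or more held 91.2%, 95.6% and 97.5%. Cells with intermediate Sftpc, from 0.5% to under 4%, which met no other gate had 13.5 CPM in Club-Tracer (135 cells), 93.2 CPM in BASC-Tracer (111 cells) and 85.4 CPM in AT2-Tracer (421 cells). In that class the BASC-Tracer and AT2-Tracer intervals overlap (80.8 to 107 and 77.2 to 94.2 CPM), unlike in the AT2 class. Cells with Sftpc at 4% or more but under 5000 UMIs, which the AT2 gate leaves out, had 113 CPM in Club-Tracer (8 UMIs in 25 cells, interval 48.9 to 223), 47.7 CPM in BASC-Tracer (3 UMIs in 32 cells, 9.84 to 139) and 164 CPM in AT2-Tracer (93 UMIs in 209 cells, 132 to 201). The Club-Tracer level of these shallow cells lay above that of its AT2 class, and their 3 intervals overlap one another in part.

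The alveolar states next to AT2 cells had little Il33. Krt8-high cells, gated on the keratin and stress genes of the transitional state that follows alveolar injury, had 0.652 CPM in Club-Tracer (155 cells), 11.6 CPM in BASC-Tracer (80 cells) and 8.54 CPM in AT2-Tracer (463 cells). AT1 cells were the flat gas-exchange cells gated on Ager, Hopx, Aqp5 and other genes. They had 1.47 CPM in Club-Tracer (1 UMI in 75 cells) and 9.01 CPM in BASC-Tracer (8 UMIs in 88 cells). In AT2-Tracer they had 10.3 CPM (60 UMIs in 822 cells). The richest AT1 cell held 6 of the 8 UMIs in BASC-Tracer and 25 of the 60 in AT2-Tracer, so 1 cell set much of each level. The BASC-Tracer and AT2-Tracer intervals of each class overlap, and so do those of the 2 classes. AT2-Tracer cells that met the AT2 gate and also the AT1 gate (25 cells) had 13.7 CPM, and those that also met the Krt8-high gate (22 cells) had 21.5 CPM, against 218 CPM in AT2 cells that met no second gate (1325 cells).

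Airway cells had few Il33 UMIs. Club cells, gated on Scgb1a1 at 10% or more with Cyp2f2 and other club genes, had 1 Il33 UMI among 1030 Club-Tracer cells, 0.0422 CPM with an interval of 0.00107 to 0.235, and 4 UMIs among 314 BASC-Tracer cells, 0.679 CPM. Club-Tracer cells that met both the AT2 and the club gate (34 cells) had 8.93 CPM. Club-Tracer AT2 cells that met no second gate (312 cells) had 31.4 CPM. Ciliated cells had 1 UMI in 430 Club-Tracer cells (0.174 CPM) and 1 UMI in 74 BASC-Tracer cells (0.736 CPM). Basal cells, a known Il33 source in the human airway, had 2 UMIs in 61 Club-Tracer cells (2.41 CPM, interval 0.292 to 8.72), and upper airway secretory cells had 3 UMIs in 49 cells (2.47 CPM). Counts this low do not order the airway classes among themselves.

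Macrophages were the non-epithelial class with most cells in the BASC-Tracer and AT2-Tracer libraries. They had 0 Il33 UMIs in 105 BASC-Tracer cells, which allows up to 2.56 CPM or 2.86% of cells. In 1861 AT2-Tracer cells they had 74 UMIs, 4.63 CPM, with 2.79% of cells positive at a median of 7775 UMIs. Per 1000 Sftpc UMIs, AT2-Tracer AT2 cells had 2.15 Il33 UMIs and AT2-Tracer macrophages 3.08. AT1 and Krt8-high cells of the AT2-Tracer library, at 2.32 and 3.03 Il33 UMIs per 1000 Sftpc UMIs, lay in the same range. In BASC-Tracer they lay above it, at 4.47 (8 UMIs, 6 of them in 1 cell) and 4.68 against 1.34 in AT2 cells. Club-Tracer Krt8-high cells had 1.21 (2 UMIs) against 0.311 in AT2 cells. Cells that met no gate stood apart, at 8.28 Il33 UMIs per 1000 Sftpc UMIs in BASC-Tracer (299 cells, 5.45 CPM) and 14.0 in AT2-Tracer (506 cells, 14.1 CPM). The part of free RNA in the low levels was not tested. Endothelial and fibroblast cells, which express Il33 in the lung, were too few to describe. The AT2-Tracer library had 12 and 23 of them, with 2 and 7 Il33 UMIs.

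**Figure D2:**
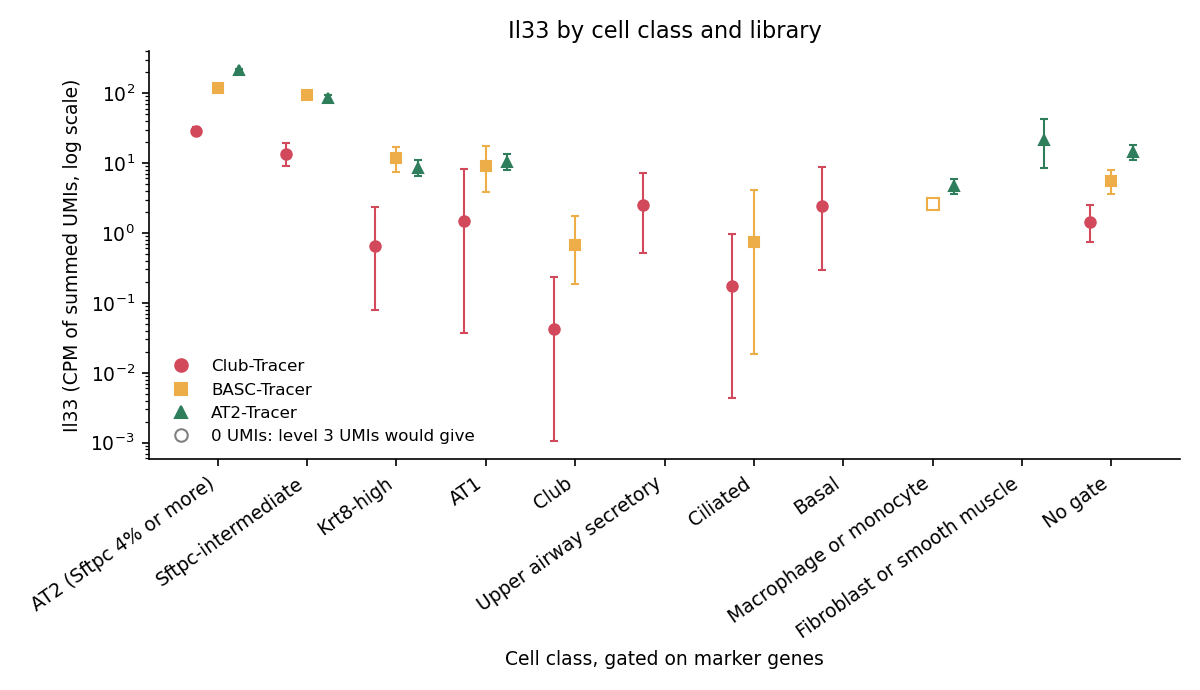
Il33 level (CPM of summed UMIs, log scale) by gated cell class (horizontal axis) in Club-Tracer (circles), BASC-Tracer (squares) and AT2-Tracer (triangles), for classes of at least 20 cells. Bars are exact Poisson 95% intervals, and an open symbol is a class with 0 UMIs, drawn at the level 3 UMIs would give. The AT2 class is at 28.7, 118 and 213 CPM, and club cells are at 0.0422 CPM in Club-Tracer and 0.679 CPM in BASC-Tracer.

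Il33 was higher at 6% Sftpc or more than at 4% to under 5% in each library, and from 6% upward the libraries stayed apart at equal share. In the bin of 8% to under 12% Sftpc it had 23.0 CPM in 131 Club-Tracer cells, 134 CPM in 129 BASC-Tracer cells and 245 CPM in 582 AT2-Tracer cells. In the bin of 6% to under 8% the levels were 17.7 CPM, 116 CPM and 189 CPM. At 12% or more they were 63.4 CPM, 127 CPM and 217 CPM, so the AT2-Tracer level was lower there than at 8% to under 12%, with intervals that do not overlap. The AT2 gate cuts the range of Sftpc shares at 4%, and below 6% the levels did not rise steadily with the share in every library. Just inside it, from 4% to under 5%, Il33 had 4.29 CPM in 37 Club-Tracer, 18.6 CPM in 21 BASC-Tracer and 111 CPM in 108 AT2-Tracer cells. Just outside, from 3% to under 4%, it had 3.71 CPM in 31 Club-Tracer, 67.0 CPM in 24 BASC-Tracer and 94.7 CPM in 99 AT2-Tracer cells. From 2% to under 3% the order of BASC-Tracer and AT2-Tracer was reversed. Il33 had 106 CPM in 38 BASC-Tracer cells (86.9 to 127) and 63.0 CPM in 102 AT2-Tracer cells (52.1 to 75.5). In 40 Club-Tracer cells of that bin it had 23.2 CPM. Between 4% and 6% neighbouring libraries overlapped: Club-Tracer and BASC-Tracer at 4% to under 5%, and BASC-Tracer (93.3 CPM) and AT2-Tracer (124 CPM) at 5% to under 6%. Neighbouring bins overlap in many places, and in bins of 21 to 40 cells a few rich cells can set the sum.

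**Figure D3:**
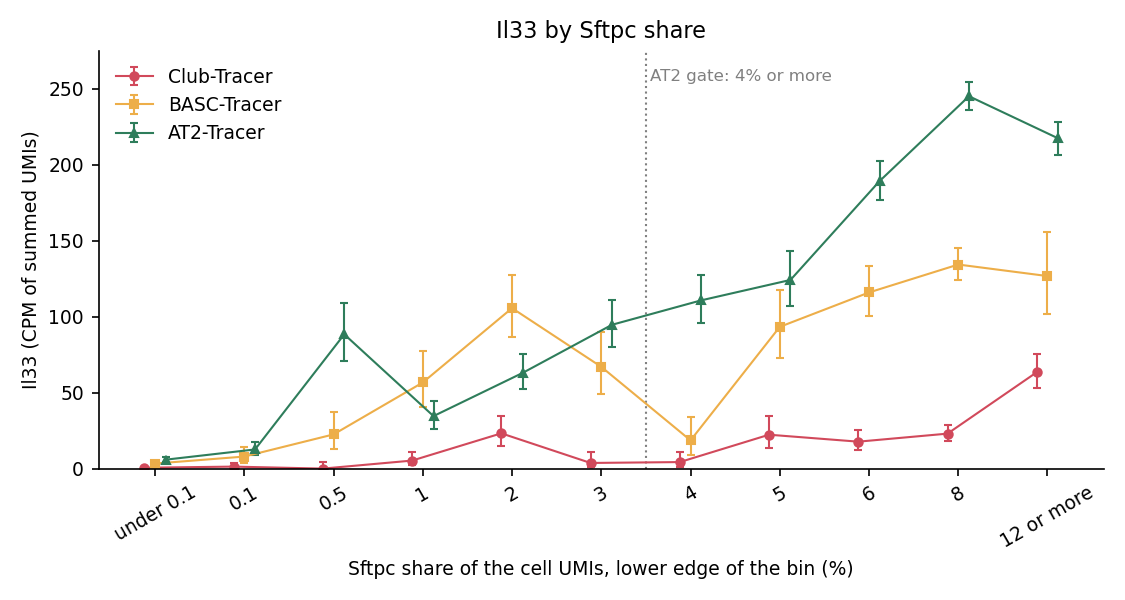
Il33 level (CPM of summed UMIs) in bins of a cell's Sftpc share (%, lower edge of each bin) for Club-Tracer (circles), BASC-Tracer (squares) and AT2-Tracer (triangles) cells of 5000 or more UMIs outside the macrophage gate, with exact Poisson 95% intervals. The dotted line is the AT2 gate at 4%, and in the 8% bin the levels are 23.0, 134 and 245 CPM.

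Among AT2 cells some genes varied with Il33 from cell to cell. Pearson's r was taken over the cells of each library between log-transformed counts per 10000, for 8787 genes seen in at least 10% of the AT2 cells of every library. Cells of a library share their preparation and depth, so r is a description and carries no p. An r of 0.2 or more was reached by 0.66% of the genes in Club-Tracer, 2.34% in BASC-Tracer and 1.38% in AT2-Tracer cells. An r of -0.2 or less was reached by 0.0569%, 0.615% and 0.353%. In all, 24 genes reached 0.2 in every library, which is 41.4% of the Club-Tracer, 11.7% of the BASC-Tracer and 19.8% of the AT2-Tracer list. The r of Il33 with the logarithm of a cell's depth was 0.04, 0.00 and 0.10.

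Ptgs1, the constitutive cyclooxygenase of prostaglandin synthesis, had the highest mean r, at 0.28 in Club-Tracer, 0.53 in BASC-Tracer and 0.46 in AT2-Tracer cells. Lrg1, a secreted leucine-rich glycoprotein of the acute phase, followed at 0.31, 0.38 and 0.54. Sgpp2, a sphingosine-1-phosphate phosphatase, had 0.32, 0.49 and 0.36. Mfsd2a, a lysolipid transporter, was at 0.25, 0.35 and 0.39 and Lcn2, the iron-sequestering lipocalin, was at 0.26, 0.31 and 0.40. Atp6v0a4, a subunit of the proton pump, had the highest r of any gene in Club-Tracer cells, at 0.36, with 0.30 in BASC-Tracer and 0.29 in AT2-Tracer cells. The rest of the 12 highest were Rbpjl, a relative of the Notch transcription factor, Lrp2, the endocytic receptor megalin, Mme, the peptidase neprilysin, Tmem243, Dmkn and Sfta2, with mean r of 0.29 to 0.31. Rbpjl and Dmkn each had an r of 0.15 in Club-Tracer cells, so they were not among the 24 genes that reached 0.2 in every library. Lamp3, Etv5 and Chil1 were among the 24, with mean r of 0.26, 0.23 and 0.29. Etv5 is a transcription factor that maintains AT2 identity.

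The genes at the other end were few. Hsp90ab1, a chaperone, had r of -0.33 in Club-Tracer, -0.23 in BASC-Tracer and -0.23 in AT2-Tracer cells, and Eef1a1, the translation elongation factor, had -0.25, -0.24 and -0.22. Cd24a, a surface glycoprotein, had -0.25, -0.30 and -0.17, and Wfdc2, a secreted antiprotease of airway secretory cells, had -0.14, -0.36 and -0.16. Pgrmc1 had -0.19, -0.27 and -0.18. Anxa5, an annexin, had -0.12 in Club-Tracer, -0.13 in BASC-Tracer and, lowest of the 3, -0.35 in AT2-Tracer cells. The 5 genes at -0.2 or less in Club-Tracer cells were Hsp90ab1, Eef1a1, Cd24a, Rpl3 and Eif3f, the last 2 named after their values were seen. Chchd10, a mitochondrial protein, was among the 4 highest only in the Club-Tracer list (r of 0.30, 0.21 and 0.12), and Spaar in the BASC-Tracer list (0.11, 0.42 and 0.25). These r values depended on depth: with cells thinned to 5000 UMIs Ptgs1 had a mean r of 0.26, Lrg1 of 0.29 and Sgpp2 of 0.19, and Lrg1 alone kept 0.2 in every library.

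**Figure D4:**
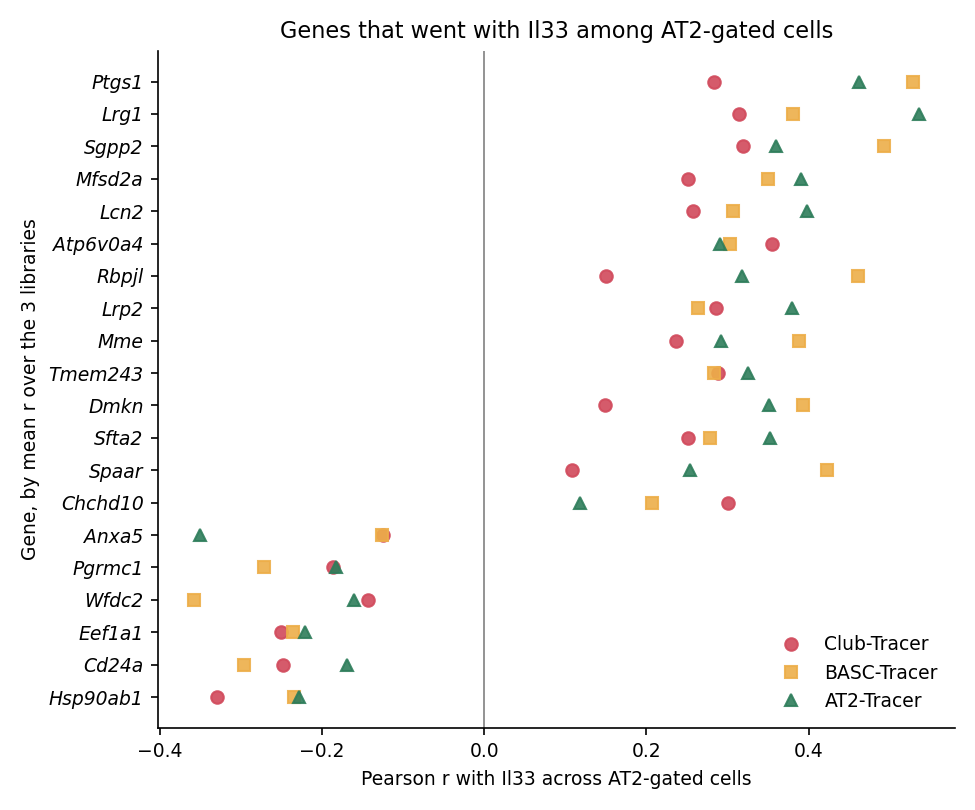
Pearson r with Il33 across AT2-gated cells (horizontal axis) for the 20 named genes, ordered by mean r (vertical axis), in Club-Tracer (circles), BASC-Tracer (squares) and AT2-Tracer (triangles). The 14 genes to the right of 0 and the 6 to the left keep their side in all 3 libraries, from -0.36 for Wfdc2 in BASC-Tracer to 0.54 for Lrg1 in AT2-Tracer cells.

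Most genes that went with Il33 across cells were also lower in the club lineage. Of the 12 genes with the highest mean r, 8 were at least 2-fold lower in Club-Tracer than in AT2-Tracer AT2 cells, none higher, with a median log2 ratio of -1.19 (median of all genes -0.15, with 3.52% of genes 2-fold lower). In BASC-Tracer over AT2-Tracer cells 3 of the 12 were 2-fold lower (Ptgs1, Sgpp2 and Mme), with a median of -0.57 (all genes -0.03, with 0.778% lower). Sgpp2 had 11.5 CPM in Club-Tracer, 47.7 in BASC-Tracer and 107 in AT2-Tracer cells. Mme had 15.1 CPM, 73.3 CPM and 160 CPM, and Ptgs1 had 72.5 CPM, 182 CPM and 370 CPM. These 3 ran in the order of Il33, lowest in Club-Tracer and highest in AT2-Tracer cells, and so did the rest of the 12. Lcn2 differed less, at 2927 CPM, 3326 CPM and 4322 CPM. Of the 6 genes with the lowest r, 3 were at least 2-fold higher in Club-Tracer than in AT2-Tracer cells (Cd24a, Wfdc2 and Pgrmc1), where 2.17% of genes were. Cd24a had 218 CPM in Club-Tracer, 85.8 CPM in BASC-Tracer and 16.2 CPM in AT2-Tracer cells. Both ratios share the AT2-Tracer cells.

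Splitting the AT2 cells by these genes left the club lineage below the AT2 lineage, by a margin that varied between bins. In cells thinned to 5000 UMIs and holding 8 or more Lrg1 UMIs, Il33 had 66.1 CPM in Club-Tracer (91 cells), 232 CPM in BASC-Tracer (83 cells) and 320 CPM in AT2-Tracer (673 cells). In cells with no Lrg1 UMI it had 5.36 CPM (91 cells), 57.5 CPM (57 cells) and 36.1 CPM (274 cells). Across the 5 bins of Lrg1 the Club-Tracer level was 0.0923 to 0.207 times the AT2-Tracer level. The BASC-Tracer level was above the AT2-Tracer level in cells with no Lrg1 UMI (ratio 1.59, interval 1.23 to 2.06) and below it in the other bins (0.366 to 0.725). In cells with no Lrg1 UMI the shares with Il33 were close, at 26.3% in BASC-Tracer and 24.8% in AT2-Tracer. The BASC-Tracer cells of that bin were deeper (median 27755 against 16013 UMIs), and a few rich cells can set their sum. By Ptgs1, cells with none had 15.4 CPM in Club-Tracer, 55.1 CPM in BASC-Tracer and 115 CPM in AT2-Tracer. Cells with 1 UMI had 51.0 CPM, 141 CPM and 172 CPM. The Club-Tracer level was 0.134 times the AT2-Tracer level with no Ptgs1 UMI and 0.296 times with 1. With 2 to 3 Ptgs1 UMIs, Il33 had 127 CPM in 19 Club-Tracer cells and 250 CPM in 432 AT2-Tracer cells. Of the bins of at least 20 cells by these 3 genes, the Club-Tracer level came nearest to the AT2-Tracer level in cells with 1 Sgpp2 UMI, at 152 CPM in Club-Tracer (20 cells), 190 CPM in BASC-Tracer (35 cells) and 260 CPM in AT2-Tracer (366 cells), where the Club-Tracer level was 0.585 times the AT2-Tracer level (0.455 to 0.742). In the 328 Club-Tracer cells with no Sgpp2 UMI it was 0.126 times the AT2-Tracer level. The BASC-Tracer level was 0.733 times the AT2-Tracer level at 1 Sgpp2 UMI and 0.818 times at 1 Ptgs1 UMI.

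**Figure D5:**
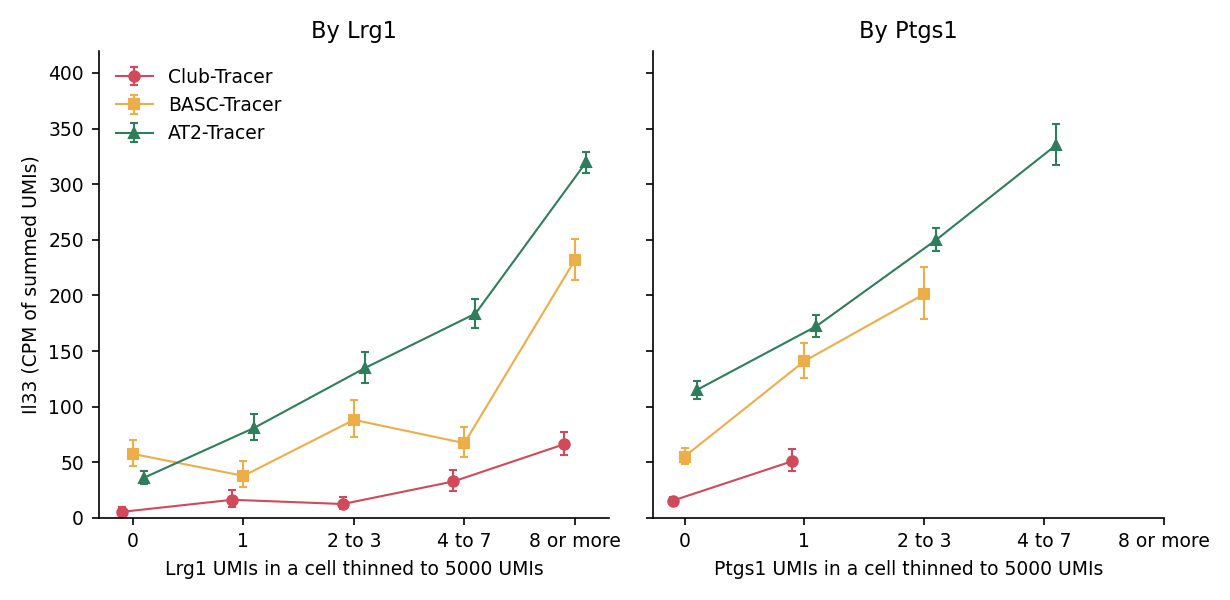
Il33 level (CPM of summed UMIs, vertical axis) in AT2-gated cells by the number of Lrg1 (left) or Ptgs1 (right) UMIs in a cell thinned to 5000 UMIs, for Club-Tracer (circles), BASC-Tracer (squares) and AT2-Tracer (triangles), with exact Poisson 95% intervals and bins of at least 20 cells. At 8 or more Lrg1 UMIs the levels are 66.1, 232 and 320 CPM.

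The state of the AT2 cell divided Il33 differently by gene. Cells in which Ager, the AT1 receptor gene that AT2 cells also transcribe at a low level, was detected at 5000 UMIs had more Il33 than cells without it in all libraries, by 3.06-fold in Club-Tracer, 3.80-fold in BASC-Tracer and 2.90-fold in AT2-Tracer cells. Itih4, an acute-phase protein, was held by 6 Club-Tracer cells, which had 0 Il33 UMIs, against 29.2 CPM in the cells without it (ratio 0, upper limit 0.734). That limit covers counting error only. Of the 343 Club-Tracer cells without Itih4, 22.4% held Il33, so 6 cells are too few to give a direction. Cells with Itih4 had 190 CPM against 115 CPM without it in the BASC-Tracer library, where 15 cells held it, and 286 CPM against 184 CPM in the AT2-Tracer library (1.55-fold). Cells with Cdkn1a, the cell cycle inhibitor p21, had 28.3 CPM in Club-Tracer cells, against 29.4 CPM without it (ratio 0.961, 0.743 to 1.25). In BASC-Tracer cells the levels were 118 CPM with Cdkn1a and 118 CPM without it (1.00, 0.882 to 1.14). In AT2-Tracer cells they were 185 CPM with it and 270 CPM without it (0.684, 0.649 to 0.720). Cells with Lyz1, a lysozyme gene that was higher in the club lineage, had 21.3 CPM against 31.8 CPM without it in Club-Tracer, 90.9 CPM against 122 CPM in BASC-Tracer and 221 CPM against 211 CPM in AT2-Tracer cells.

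Within the BASC lineage the summed Il33 level differed by Scgb1a1. The 219 BASC-Tracer AT2 cells with an Scgb1a1 UMI at 5000 UMIs had 96.6 CPM of Il33, and the 39 without one had 214 CPM. The shares of cells with Il33 lay nearer, at 52.5% and 66.7%, and the 39 were deeper (median 38574 against 31222 UMIs). The tenth of BASC-Tracer cells with most Il33 held 64.4% of its UMIs, so a few rich cells can set a sum over 39 cells. AT2-Tracer cells without Scgb1a1 (1231 cells) had 210 CPM, so among AT2 cells without it the BASC-Tracer level was 1.02 times the AT2-Tracer level (0.911 to 1.14). Among cells with it the ratio was 0.408 (0.366 to 0.454), with 237 CPM in 164 AT2-Tracer cells. The 39 cells carried the red reporter tdT at 1726 CPM, close to the 1616 CPM of the other 219, and ZsGFP at 8408 CPM against 9014 CPM. AT2-Tracer AT2 cells had 0.728 CPM of tdT. Nearly all Club-Tracer AT2 cells (348 of 349) held Scgb1a1, so the same split could not be made there. ZsGFP was seen in 183 Club-Tracer AT2 cells together with tdT, and their Il33 level of 28.0 CPM did not stand apart from the 30.1 CPM of the 164 cells with tdT alone.

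The IL-33 receptor gene was almost absent from AT2 cells. Il1rl1 had 2 UMIs in the Club-Tracer and 0 in the BASC-Tracer and AT2-Tracer AT2 cells. Its highest levels were in the lymphoid gate, at 287 CPM in 23 Club-Tracer cells of the lymphoid gate (20 UMIs in 9 cells), 253 CPM in 8 BASC-Tracer cells (9 UMIs in 4 cells) and 320 CPM in 5 AT2-Tracer cells (5 UMIs in 2 cells). In macrophages it had 1.38 CPM in the AT2-Tracer library (22 UMIs in 1861 cells). In the AT2-Tracer library 1 fibroblast held 12 UMIs and ungated cells held 9, and ungated Club-Tracer cells held 11. Il1rap, the co-receptor, had 11.9 CPM in Club-Tracer, 11.8 CPM in BASC-Tracer and 4.95 CPM in AT2-Tracer AT2 cells, detected in 25.8%, 30.2% and 8.96% of them. Of the 17 genes listed for the receptor and its proximal signalling, 5 were at 50 CPM or more (Myd88, Irak1, Irak2, Tab2 and Nfkbia) and none differed 2-fold in either ratio. Myd88, the adaptor of the receptor, had 50.4 CPM in Club-Tracer, 60.7 CPM in BASC-Tracer and 50.2 CPM in AT2-Tracer AT2 cells. The median log2 ratio of the 5 was -0.16 for Club-Tracer and -0.04 for BASC-Tracer over AT2-Tracer cells, beside -0.15 and -0.03 over all genes.

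None of the 14 genes listed for IL-33 processing reached 50 CPM in AT2 cells. The calpain genes Capn1 and Capn2, whose product can cleave the cytokine, had 21.3 and 27.0 CPM in Club-Tracer, 31.9 and 38.2 CPM in BASC-Tracer, and 29.2 and 43.8 CPM in AT2-Tracer AT2 cells. Of the listed neutrophil and mast cell proteases that activate it, Prtn3 had 6 UMIs in Club-Tracer, 0 in BASC-Tracer and 6 in AT2-Tracer AT2 cells. The others, such as Elane, Ctsg and Cma1, had no more than 1 UMI each in the AT2 cells of any library. Ctss, a macrophage protease, had 0.662 CPM, 8.80 CPM and 41.9 CPM, in the order of the macrophage counts of the libraries.

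Of the other alarmins some differed little between libraries and some ran in the order of Il33 at low levels. Tslp, an epithelial alarmin that often acts beside IL-33, had 6 UMIs in Club-Tracer, 3 in BASC-Tracer and 10 in AT2-Tracer AT2 cells, under 1 CPM in each, and Il25 had none. Hmgb1, a nuclear alarmin, had 426 CPM, 524 CPM and 497 CPM. Anxa1, an annexin that damps inflammation, had 512 CPM, 465 CPM and 423 CPM. Of the 13 genes listed, 10 matched a feature by symbol, and Hmgb1 and Anxa1 alone were at 50 CPM or more, neither differing 2-fold. Il1b had 0 CPM in Club-Tracer, 0.238 CPM in BASC-Tracer and 31.5 CPM in AT2-Tracer AT2 cells, beside 2044 CPM in AT2-Tracer macrophages. Il1a (0 CPM, 0.238 CPM and 6.37 CPM), Il1rn (0 CPM, 0 CPM and 7.97 CPM) and S100a8 (0 CPM, 0 CPM and 4.95 CPM) were also highest in AT2-Tracer AT2 cells, as Il33 was. Chil3, which macrophages of the AT2-Tracer library held at 15239 CPM, had 0.552 CPM, 0.475 CPM and 150 CPM in the AT2 cells. Il33 itself was at 4.63 CPM in those macrophages. The part of macrophage RNA in the AT2 values of these genes was not tested.

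Among 20 type 2 effector genes, Il4, Il5, Il9 and Il13 were near 0. Il13 had 1 UMI in Club-Tracer, 0 in BASC-Tracer and 1 in AT2-Tracer AT2 cells, Il5 had 0, 1 and 0, and Il4 and Il9 had none. Csf2, the cytokine GM-CSF, had 11.3 CPM in Club-Tracer, 16.5 CPM in BASC-Tracer and 19.6 CPM in AT2-Tracer AT2 cells, with r with Il33 of 0.11, 0.30 and 0.06. At 50 CPM or more were 4 genes (Areg, Rora, Retnla and Chil3), of which Retnla was 2-fold higher and Chil3 2-fold lower in both ratios. Over all genes 2.17% were higher and 3.52% lower for Club-Tracer over AT2-Tracer cells, and 1.05% and 0.778% for BASC-Tracer over AT2-Tracer cells. Areg, the epidermal growth factor family ligand that ST2-bearing lymphocytes also make, had 524 CPM in Club-Tracer, 519 CPM in BASC-Tracer and 537 CPM in AT2-Tracer AT2 cells. Retnla, a resistin-like gene of the type 2 response, had 1352 CPM, 372 CPM and 181 CPM. It was highest in club cells, at 13589 CPM in the Club-Tracer and 13826 CPM in the BASC-Tracer library, where Il33 was near 0, and across lineages its AT2 levels ran opposite to those of Il33. Across the alveolar classes of the AT2-Tracer library it was highest in AT2 cells, as Il33 was, at 181 CPM in AT2, 75.3 CPM in Sftpc-intermediate, 1.55 CPM in Krt8-high and 2.91 CPM in AT1 cells. Its r with Il33 was 0.04 in Club-Tracer, 0.02 in BASC-Tracer and 0.24 in AT2-Tracer AT2 cells.

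The AT2 state genes, listed with earlier results of these data known, moved unevenly. Of 15 that reached 50 CPM, 7 were at least 2-fold lower in Club-Tracer than in AT2-Tracer AT2 cells (Hc, Fabp5, Apoe, Itih4, H2-Ab1, Lrg1 and Cd74) and Lyz1 was higher, where 3.52% of all genes were lower and 2.17% higher. In BASC-Tracer over AT2-Tracer cells 3 were lower (Apoe, Itih4 and H2-Ab1) and Lyz1 higher, where 0.778% of all genes were lower and 1.05% higher. The surfactant genes Sftpb and Sftpa1 lay within 2-fold, with log2 ratios of 0.14 and 0.50 for Club-Tracer and -0.02 and 0.18 for BASC-Tracer over AT2-Tracer cells. Of 12 NF-kB and interferon targets 4 were at 50 CPM or more, and Cxcl2, a neutrophil chemokine, was at least 2-fold lower in both ratios (background 3.52% and 0.778%), at 24.9 CPM in Club-Tracer, 14.3 CPM in BASC-Tracer and 124 CPM in AT2-Tracer AT2 cells. Icam1, an adhesion molecule and NF-kB target, had 350 CPM, 460 CPM and 582 CPM. Chil3, high in macrophages, was detected in 32.3% of the AT2-Tracer AT2 cells. Its share was lower in the AT2 cells of the other libraries (Club-Tracer 1.15%, BASC-Tracer 1.55%). How much macrophage RNA lay in the AT2 values of Apoe, H2-Ab1, Cd74, Cxcl2 and the other genes of this paragraph was not tested.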

How the data were processed

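Single-cell 5′ gene expression libraries of 3 sorted lineages were analysed, with 1 library each. The authors deposited UMI counts per gene and barcode, whole numbers with no normalization, per the file headers. Cell Ranger 6.1.1 and the mm10 build are named in the submitters' processing notes. Which annotation the counting used is not given in the sources at hand. Deposited totals were 62570890 (Club-Tracer), 29013077 (BASC-Tracer) and 72256580 UMIs (AT2-Tracer).

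Barcodes with under 500 genes (1872, 959 and 2686 in the order above) and then those with over 15% mt- UMIs (236, 78 and 339) were left out. No doublet caller was run. Leaving out the 5% deepest AT2 cells stands in for it. Classes were gated on the summed share of marker genes in a cell's UMIs: 1% for club (with Scgb1a1 at 10%), upper airway secretory, AT1 and Krt8-high genes, 0.5% for ciliated and macrophage, 0.3% for endothelial and fibroblast, and 0.2% for basal and lymphoid genes. The AT2 gate came first, and cells that met several others formed a class of their own. Gate limits were set on the markers and not on Il33.

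Counts were summed per class and expressed as CPM with exact Poisson 95% intervals. Shares carry exact Clopper-Pearson intervals and ratios exact conditional ones. A count of 0 allows up to 3 counts. Cells were thinned without replacement with fixed seeds. With 1 library per lineage no test was made. The Pearson r used ln(1 + counts per 10000). Named are the 12 genes of highest and the 6 of lowest mean r over the libraries, the 4 highest in each library, and members of fixed lists, without predicted, Rik, ribosomal, mitochondrial, hemoglobin and reporter genes. Il33, the lists and the alternatives were chosen with earlier results of these data known. The splits by Lrg1, Ptgs1, Hc, Sgpp2, reporters and second gates were added after the values had been seen. The calculations were tested on simulated data. Python 3.11.15 was used with numpy 2.4.6, scipy 1.17.1, pandas 2.3.3 and matplotlib 3.10.9. Promoter windows are RefSeq's (GRCm38.p6) and gene models GENCODE's (vM21). Alternatives changed 1 choice at a time. The values of 1 listed gene are not reported here.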

Additional observations from a re-analysis of the deposited data

Results flagged for a closer look

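Among AT2 cells the relation of the summed Il33 level to Scgb1a1 ran in opposite directions in 2 lineages, but the share of cells with Il33 did not. BASC-Tracer cells with an Scgb1a1 UMI at 5000 UMIs had 0.451 times the Il33 level of cells without one (interval 0.395 to 0.516). In AT2-Tracer cells the ratio was 1.13 (1.04 to 1.22). Il33 was detected in fewer of the cells with Scgb1a1 in both: 52.5% against 66.7% without it in BASC-Tracer, and 57.9% against 68.6% in AT2-Tracer cells. The intervals cover counting error only, and a few rich cells can set a sum. The difference between the lineages was not tested. AT2-Tracer cells with Scgb1a1 held it at 441 CPM, against 11495 CPM in the BASC-Tracer cells with it, so the split does not divide the libraries at the same level.

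The relation to cycling genes also differed in direction in thinned cells. Club-Tracer AT2 cells with Mki67 or Top2a at 5000 UMIs had 1 Il33 UMI in 20 cells, 0.0677 times the level of the cells without (interval 0.00171 to 0.381). The ratio in AT2-Tracer cells was 1.09 (1.00 to 1.18, 139 cells). The difference was not tested. BASC-Tracer had 17 such cells, at 131 CPM with and 117 CPM without. The Club-Tracer direction depends on the depth at which such cells are called: at full depth, leaving out cells with a Mki67 or Top2a UMI gave 24.4 CPM in Club-Tracer, below the 28.7 CPM of all its AT2 cells, so the cells left out were then the higher ones.

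Barcodes left out by the filters held Il33 above the level of the macrophages of their library. In BASC-Tracer those with few genes had 15.4 CPM (14 UMIs) and those with many mitochondrial UMIs 56.5 CPM (13 UMIs). In AT2-Tracer the levels were 59.0 CPM (134 UMIs) and 61.8 CPM (51 UMIs). In Club-Tracer they were 2.37 CPM and 1.38 CPM, from 4 UMIs and 1 UMI, and were not above that level.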

How the results depend on the processing

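The Club-Tracer over AT2-Tracer ratio of Il33 in AT2 cells ranged from 0.118 to 0.157 over 16 alternatives and stayed below 1 in all of them, 14 of which lay within its counting interval. It was 0.157 with Sftpc at 8% or more, and 0.118 with cells holding an Mki67 or Top2a UMI at full depth left out, where the cause was not tested. The BASC-Tracer over AT2-Tracer ratio ranged from 0.511 to 0.587 and left its interval once, at 0.511 without those cycling cells. Of the 16, 3 were chosen after seeing the data (reporter-matched cells, cells with a second gate left out, cells with Chil3 or Il1b left out). The AT2-Tracer level itself ranged from 197 to 238 CPM. The number of genes at r of 0.2 or more in all 3 libraries was 24, and 1 when cells were thinned to 5000 UMIs, where each cell holds fewer UMIs. Over the other 4 settings it stayed within 1.5 times. In the Club-Tracer list it ranged from 14 to 115 genes, against 58. Among r values of named genes that were at least 0.2 in size, 1 changed sign: Chchd10 in BASC-Tracer cells, to -0.013 at 5000 UMIs. Sign changes of smaller values were not counted, such as Spaar in Club-Tracer cells, from 0.11 to -0.081 at 5000 UMIs. By class, 17 of 30 levels left their counting interval when gates were doubled or cells thinned to 1500 UMIs. No paired analysis was possible because each lineage has 1 library, and leaving out replicates was not possible for the same reason. Depth limits the low classes: with 1 to 4 UMIs per class, levels of club, ciliated and basal cells cannot be ordered. Free RNA, sorting purity and lineage cannot be told apart with 1 library per lineage.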

Other observations

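A small number of cells held Il33 with little Sftpc. Among cells of 5000 or more UMIs with Sftpc under 0.5%, at least 2 Il33 UMIs were held by 6 of 2089 cells in Club-Tracer, 12 of 639 in BASC-Tracer and 24 of 2457 in AT2-Tracer, with up to 6, 6 and 11 in a cell. Epcam, the epithelial adhesion gene, was detected in 6 of the 6, 11 of the 12 and 22 of the 24, against 91.3%, 79.5% and 47.0% of all cells with Sftpc that low. Ptprc was seen in 1, 0 and 4 of them. In the AT2-Tracer library 16 met no gate, 5 were Krt8-high, 2 met the macrophage gate and 1 the fibroblast gate. Cdkn1a was detected in all 24 of them, and in 91.8% of all AT2-Tracer cells with Sftpc that low. These cells were picked by their Il33 counts, so their values are a description with no test.

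Hc, the gene of complement component 5, was set against Il33 among AT2 cells. In Club-Tracer cells Il33 had 21.1 CPM with no Hc UMI at 5000 UMIs, 33.0 CPM with 1 UMI and 42.9 CPM with 4 to 7 (28 cells), and 1 cell held more. In BASC-Tracer cells it had 75.6 CPM with none, 134 CPM with 1 UMI and 113 CPM with 8 or more (31 cells). In AT2-Tracer cells Il33 had 96.4 CPM with no Hc UMI, 172 CPM with 1 UMI and 277 CPM with 8 or more. Whether the lineages differ in this was not tested.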
